A study of Mus musculus with 7 samples.

Results

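Adrenergic receptors are the membrane proteins through which noradrenaline and adrenaline act on cells. The mRNAs described here are those of 8 adrenergic receptor genes: Adra1a, Adra1b and Adra1d of the alpha-1 class, Adra2a, Adra2b and Adra2c of the alpha-2 class, and Adrb1 and Adrb3 of the beta class. They were found by matching the Ensembl identifiers of the deposited gene table, with version numbers removed, to gene symbols, and make up 8 of its 22248 genes. All 8 had counts, and 7 had enough to be tested. Adra2b, with 36.4 counts in all 7 libraries together, did not.

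The mice were wild-type females of strain C57Bl/6J, and the RNA came from synaptoneurosomes of the hippocampus. These are a brain fraction enriched in pinched-off nerve endings and the postsynaptic membranes attached to them. AM6545 blocks the cannabinoid receptor CB1, the product of Cnr1, and reaches the brain only to a small extent. Sub-chronic AM6545 is represented by 4 libraries, lettered B, D, E and F, and vehicle by 3, lettered B, D and E. The labels do not give the dose, the duration, the age of the mice or how many mice entered a library, so p-values measure the spread between these libraries, which may be partly technical. The question addressed is whether mRNAs of the receptors for noradrenaline, and of the pathways they feed, differed between the treatments in this fraction.

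The classes of receptor differ in the G protein they engage. Alpha-1 receptors couple to Gq and phospholipase C, which releases calcium from internal stores. Alpha-2 receptors couple to Gi/o, lower cyclic AMP and open potassium channels, and many act at nerve endings where they restrain transmitter release. Beta receptors couple to Gs and raise cyclic AMP, which in the hippocampus favours synaptic potentiation. Noradrenergic axons reach the hippocampus from the locus coeruleus, whose cell bodies lie in the brainstem.

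A stretch shared by the family shows how closely the 8 genes are related. The DRY motif lies at the cytoplasmic end of the third membrane-spanning helix and takes part in receptor activation and G protein coupling. Windows of 57 bases around it are printed because they show what the members share and where they part by class. They were read from GENCODE M21 transcripts, and positions are in mm10. Capitals mark the 9 bases of the 3 motif codons, with 24 bases on either side, and each window lies within the coding sequence.
Adra1a (chr14:66637920-66637976, plus strand): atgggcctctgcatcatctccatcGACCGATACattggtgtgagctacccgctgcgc
Adra1b (chr11:43835633-43835689, minus strand): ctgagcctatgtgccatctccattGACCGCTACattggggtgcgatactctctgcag
Adra1d (chr2:131561578-131561634, minus strand): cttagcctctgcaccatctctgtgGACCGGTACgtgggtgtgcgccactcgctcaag
Adra2a (chr19:54046623-54046679, plus strand): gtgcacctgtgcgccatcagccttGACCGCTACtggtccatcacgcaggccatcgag
Adra2b (chr2:127363880-127363936, plus strand): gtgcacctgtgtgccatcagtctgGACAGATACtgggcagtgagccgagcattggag
Adra2c (chr5:35280303-35280359, plus strand): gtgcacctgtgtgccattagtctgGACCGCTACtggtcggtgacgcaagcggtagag
Adrb1 (chr19:56722810-56722866, plus strand): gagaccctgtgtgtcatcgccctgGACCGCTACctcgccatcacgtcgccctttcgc
Adrb3 (chr8:27227997-27228053, minus strand): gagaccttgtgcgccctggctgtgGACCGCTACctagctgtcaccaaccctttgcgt

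Within a class 70.2% to 80.7% of the window's bases were identical between members, and between classes 45.6% to 64.9%. The closest pairs were Adra2c with Adra2a and Adra2c with Adra2b, each at 80.7%. The coding sequences were rich in G and C, from 54.6% GC in Adra1a to 65.8% in Adra2c and 68.7% in Adrb1. Coding sequence lay in a single exon in Adra2a, Adra2b, Adra2c and Adrb1, and in 2 exons in the other members. Base composition is taken up again with the treatment comparison, because the libraries differed in their trend with GC content.

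Library totals ran from 19174649 estimated counts (Vehicle E) to 25894733 (Vehicle B). Mitochondrially encoded genes took 5.69% ± 0.697 of counts in AM6545 (SD, n = 4) and 7.44% ± 2.07 in Vehicle (SD, n = 3), with the highest share, 9.83%, in Vehicle B. The groups overlapped in that share and did not differ by a two-sided exact permutation test (p 0.114, adjusted over the 2 library measures 0.114). Across all 14654 genes tested, 1 (0.00682%) had an adjusted p under 0.05 and 2134 (14.6%) an unadjusted p under 0.05.

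Adra2c mRNA was the highest of the 8 in every library. On a scale of level per transcript length (TPM: counts divided by transcript length and scaled to the same total in each library), Adra2c stood at 32.2 ± 4.20 TPM (SD, n = 7), with libraries from 24.9 to 38.6. That was 55.8% of the summed level of the 8 genes and 3.64 times the level of Adra1d, the next in order. Adra2c, which encodes the alpha-2C receptor, ranked at the 79.2 percentile of the 22173 genes with a level per length. The second place was held by Adra1d, encoding the alpha-1D receptor, at 8.84 ± 0.534 TPM (8.02 to 9.66), and its range did not meet that of Adra2c.

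The middle of the order was close. Adra2a, encoding the alpha-2A receptor, stood at 6.20 ± 1.28 TPM (SD, n = 7; 4.85 to 8.72) and Adrb1, encoding the beta-1 receptor, at 5.13 ± 0.939 TPM (4.13 to 6.53). Ranges of neighbours overlapped here, although Adra1d was above Adra2a in 7 of 7 libraries and Adra2a above Adrb1 in 6 of 7. Adra1b followed at 2.93 ± 0.717 TPM (1.59 to 3.62), below every library's Adrb1 level. Adra1a at 1.17 ± 0.318 TPM (0.818 to 1.58) and Adrb3 at 1.12 ± 0.249 TPM (0.783 to 1.51) could not be ordered, since Adra1a was the higher in 5 of 7 libraries. Adra2b came last at 0.108 ± 0.0789 TPM (0.0192 to 0.234), resting on 1 to 11 counts a library.

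**Figure D1:**
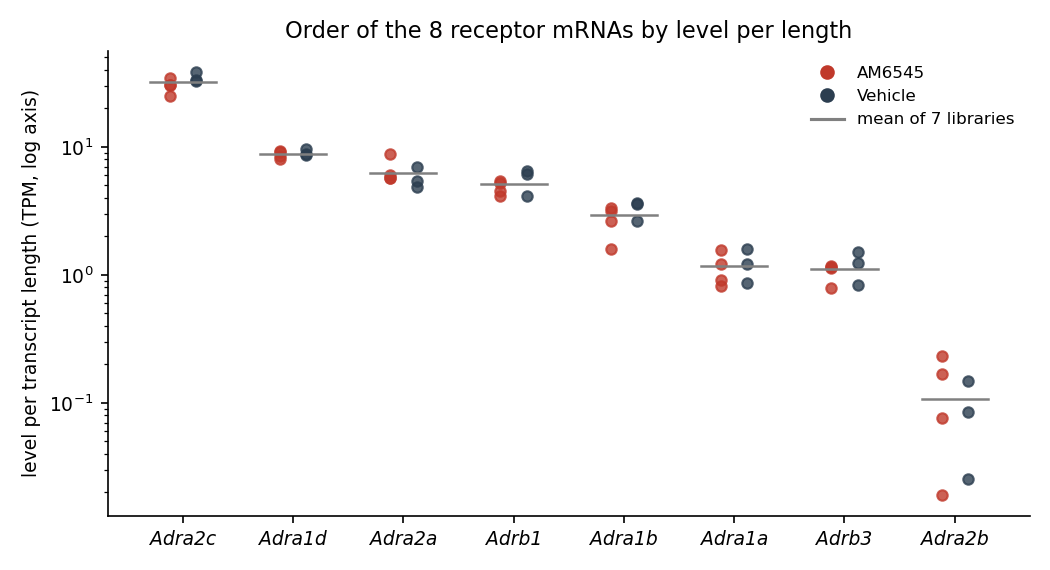
Level per transcript length (TPM, log axis) of the 8 receptor mRNAs in each library, AM6545 in red and Vehicle in dark blue, with the mean of 7 libraries as a grey line. Adra2c lies above all other members, Adra2b below them, and neighbours from Adra1d to Adrb1 overlap.

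By class, the alpha-2 genes held most of the receptor mRNA in both treatments. Their share of the summed level of the 8 genes was 66.7% ± 0.364 in AM6545 (SD, n = 4) and 66.7% ± 2.71 in Vehicle (SD, n = 3). The alpha-1 genes took 22.7% ± 0.416 and 22.2% ± 1.44. Adrb1 and Adrb3 together took 10.6% ± 0.261 and 11.1% ± 1.56. These shares differed between treatments by less than the spread among Vehicle libraries.

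None of the 7 receptors tested differed between AM6545 and Vehicle at an adjusted p under 0.05 (edgeR's quasi-likelihood test, Benjamini-Hochberg adjustment over all genes). At an unadjusted p under 0.05 there was 1 of 7, Adra2c, which was lower in AM6545; of all genes tested 14.6% passed that mark, 5.86% higher and 8.7% lower. In these bulk samples, fewer cells of a type and less mRNA per cell cannot be told apart. DESeq2 called 0 as well, although it gave 4 of the 7 no adjusted p, and limma-voom 0. The log2 fold change, AM6545 over Vehicle, was below 0 for 6 of 7 members, against 48.6% of all genes, with a median of -0.24 against 0.01. Most of the 7 lay in the decile of genes with the highest GC content, in which 82.8% of genes were below 0. With the correction for GC content described further on, 5 of 7 were below 0, and the median of all genes was 0.01. Normalised counts below are CPM, counts relative to each library's size after TMM scaling, which serve to compare libraries and not genes.

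Adra2c (ENSMUSG00000045318.7, chr5:35278319-35281763, plus strand) gave 44.4, 60.1, 52.5 and 53.6 CPM in AM6545 B, D, E and F, and 68.3, 68.1 and 62.6 CPM in Vehicle B, D and E. In CPM every AM6545 library lay below every Vehicle library, and Adra2c was the only member whose groups did not overlap. Of all genes tested 13.8% had groups apart in CPM, 6.63% higher and 7.19% lower. In TPM the groups of Adra2c overlapped, with AM6545 D at 34.4 above Vehicle B at 32.9 and Vehicle E at 33.4. The means were 52.7 ± 6.45 CPM (SD, n = 4) and 66.3 ± 3.23 CPM (SD, n = 3). The log2 fold change was -0.33 (SE 0.11), a fold of 0.794 with a 95% interval of 0.671 to 0.938, and the edgeR adjusted p was 0.245 (unadjusted 0.0109). Across the alternatives the adjusted p ran from 0.0736, without Vehicle E, to 1, and the fold change from -0.40 to -0.14 with the same sign throughout.

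The other alpha-2 members showed no separation. Adra2a (ENSMUSG00000033717.7, chr19:54044151-54048982, plus strand), whose product acts both as an autoreceptor on noradrenergic endings and on their target neurons, gave 11.6, 10.8, 16.1 and 10.9 CPM in AM6545 B, D, E and F. Vehicle B, D and E gave 12.2, 13.2 and 9.58 CPM. AM6545 E was the highest of all and the remaining AM6545 libraries lay inside the Vehicle range. The log2 fold change of Adra2a was 0.08 (SE 0.17; edgeR adjusted p 0.845), and it was -0.07 without AM6545 E and -0.04 without Vehicle E. Adra2b (ENSMUSG00000058620.6, chr2:127363208-127367221, plus strand) gave 0.48, 0.15, 0.33 and 0.04 CPM in AM6545 and 0.20, 0.28 and 0.05 CPM in Vehicle. The groups overlapped, and with 1 to 11 counts a library no test was made.

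Adrb1 (ENSMUSG00000035283.6, chr19:56722199-56733113, plus strand) encodes the beta-1 receptor, which couples to Gs. It gave 6.32, 7.75, 7.67 and 6.56 CPM in AM6545 B, D, E and F, and 11.6, 8.99 and 6.66 CPM in Vehicle B, D and E. Vehicle B and D were above every AM6545 library and Vehicle E lay among them. The means were 7.07 ± 0.740 CPM (SD, n = 4) and 9.08 ± 2.47 CPM (SD, n = 3). The log2 fold change was -0.37 (SE 0.18; edgeR adjusted p 0.365), a fold of 0.775 with a 95% interval of 0.593 to 1.01. Vehicle B and E decided its size: the fold change was -0.15 without Vehicle B and -0.54 without Vehicle E, where the adjusted p was 0.0563.

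Adrb3 (ENSMUSG00000031489.16, chr8:27225776-27250616, minus strand) encodes the beta-3 receptor, best known from fat tissue. Its normalised counts were 0.78, 0.99, 1.13 and 1.19 CPM in AM6545 and 1.69, 1.01 and 1.73 CPM in Vehicle, from 18 to 42 counts a library. Vehicle D lay within the AM6545 range and the other Vehicle libraries above it. The log2 fold change of -0.52 (SE 0.28) was the lowest of the members and also the least precise, with a 95% interval from -1.13 to 0.10 (edgeR adjusted p 0.412).

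The alpha-1 members overlapped between treatments. Adra1d (ENSMUSG00000027335.10, chr2:131545850-131562283, minus strand) gave 7.87, 8.89, 8.56 and 8.21 CPM in AM6545 B, D, E and F and 11.0, 8.63 and 8.88 CPM in Vehicle. Vehicle B alone was outside the AM6545 range. Its log2 fold change was -0.18 (SE 0.13; edgeR adjusted p 0.521). Adra1b (ENSMUSG00000050541.15, chr11:43774606-43901210, minus strand), encoding the alpha-1B receptor, gave 2.51, 4.05, 4.75 and 4.26 CPM in AM6545 and 5.44, 4.52 and 3.73 CPM in Vehicle. AM6545 B was the lowest and Vehicle B the highest of the 7, with the rest interleaved, and the log2 fold change was -0.24 (SE 0.22; edgeR adjusted p 0.622). Adra1a (ENSMUSG00000045875.14, chr14:66635251-66771168, plus strand), encoding the alpha-1A receptor, gave 1.77, 2.90, 2.59 and 1.65 CPM in AM6545 and 2.13, 2.38 and 3.08 CPM in Vehicle. The groups overlapped over most of their range. Its log2 fold change was -0.18 (SE 0.25; edgeR adjusted p 0.760), and its 95% interval from -0.71 to 0.36 takes in a fold of 0.610 and a fold of 1.29 alike. All 3 values moved with single libraries. Adra1a ran from -0.34 without AM6545 D to -0.02 without Vehicle E, Adra1b from -0.35 without Vehicle E to -0.08 without AM6545 B, and Adra1d from -0.25 without Vehicle D to -0.06 without Vehicle B.

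**Figure D2:**
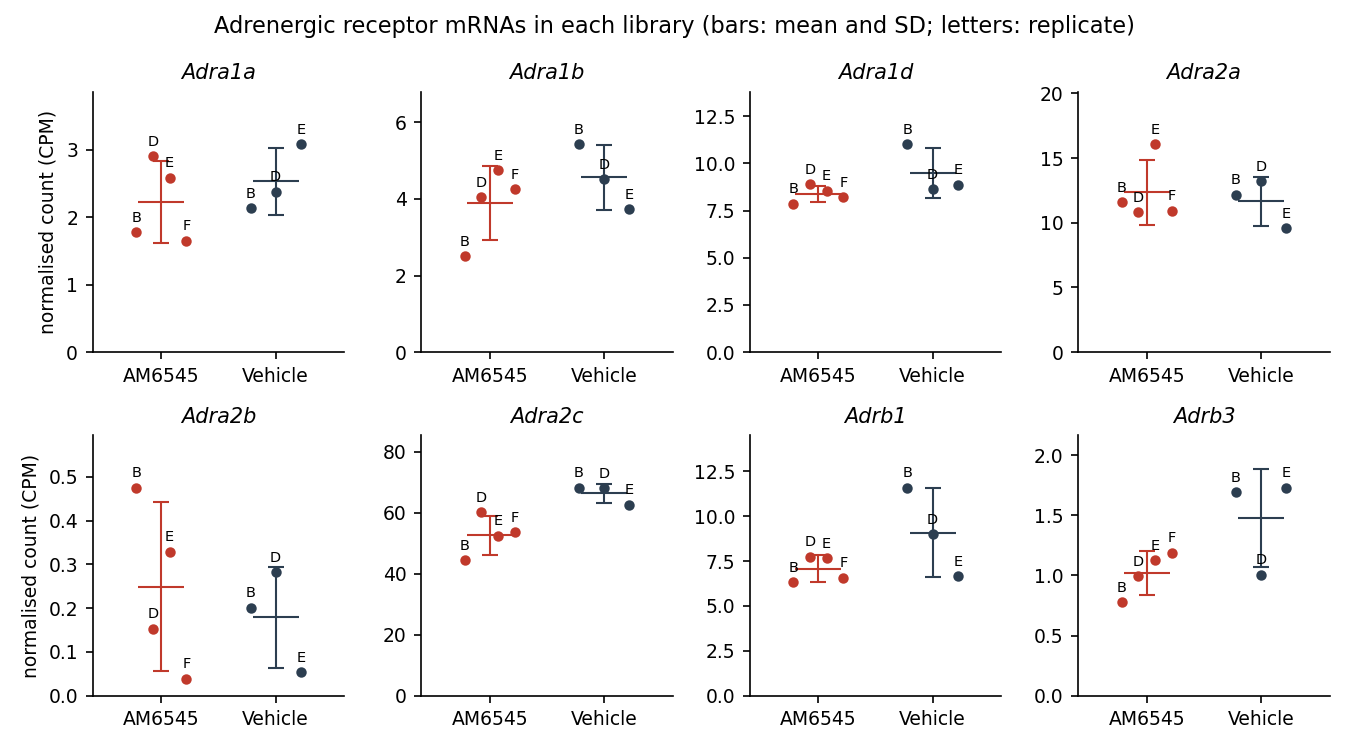
Normalised counts (CPM) of the 8 receptor genes in each library, AM6545 in red and Vehicle in dark blue; letters name the replicate, bars give the mean and SD, and each panel has its own axis from 0. Adra2c is the panel in which no AM6545 point reaches the Vehicle points, while in all others the groups overlap.

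GC content moved with the treatment comparison, and most of the receptors are GC-rich. The slope of a library's log2 level on GC content, per 10 percentage points and after centring each gene over the libraries, was -0.067 ± 0.042 in AM6545 (SD, n = 4) and 0.089 ± 0.045 in Vehicle (SD, n = 3). A two-sided exact permutation test gave p 0.0286, the smallest that 35 splits allow, and 0.0571 after adjustment over the 2 library measures. Of the 7 receptors tested, Adra1d (65.4% GC), Adra2a (59.4%), Adra2c (65.5%), Adrb1 (58.7%) and Adrb3 (58.5%) belonged to the decile of genes with the highest GC content. In that decile 82.8% of genes had a log2 fold change below 0, with a median of -0.17, against 23.0% and a median of 0.16 in the decile with the lowest GC content. Adra1b (56.2%) fell in decile 9 and Adra1a (50.4%) in decile 5.

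When each library was corrected for its trend with GC content and transcript length, the fold changes of the GC-rich receptors moved by different amounts. Adra2c went from -0.33 to -0.14 (SE 0.10; edgeR adjusted p 0.783, unadjusted 0.190), so it no longer passed the unadjusted mark. Adra1d changed sign, from -0.18 to 0.12 (SE 0.11; edgeR adjusted p 0.822). Adrb1 (-0.37 to -0.32) and Adrb3 (-0.52 to -0.41) kept most of their size, as did Adra1b (-0.24 to -0.23), while Adra1a moved away from 0, from -0.18 to -0.26. Adra2a was at 0.13. No member had an adjusted p under 0.05 with the correction.

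**Figure D3:**
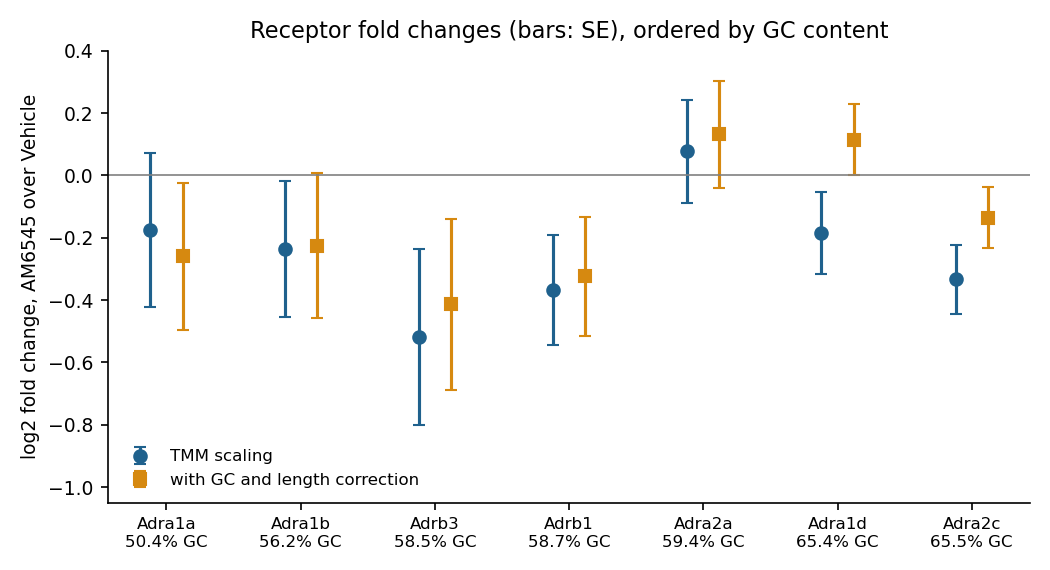
Log2 fold change, AM6545 over Vehicle, of the 7 tested receptors, ordered from the lowest to the highest GC content, with TMM scaling (blue circles) and with the GC and length correction (orange squares); bars are standard errors. The 2 receptors richest in GC, Adra1d and Adra2c, show the largest upward shift.

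At the level of transcripts, 22 annotated transcripts of the 8 genes were in the deposited table, 4 of them at 0 in every library, and 11 could be tested. None of the 11 had an adjusted p under 0.05, against 0.0177% of the 33962 transcripts tested. At an unadjusted p under 0.05 there were 0 higher and 2 lower, Adra2c-201 and Adrb3-201, where 8.39% of all transcripts passed, 3.89% higher and 4.5% lower. The same 2 were the tested transcripts whose groups did not overlap in normalised counts, against 10.8% of all, 5.23% higher and 5.59% lower. The log2 fold change was below 0 for 7 of 11, against 49.7%. Adra2c, Adra1d and Adra2b were each carried by 1 transcript in all libraries, and Adrb1 by Adrb1-201 with at least 99.4% of its counts. Transcript counts are estimates that divide reads among overlapping transcripts, and they are least certain where transcripts differ by few bases or counts are low.

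Among the members, Adrb3 was the one in which transcript shares did not overlap between treatments. Over all 27938 tested transcripts of genes with 2 or more, shares were apart for 4.26% in the higher direction and 4.36% in the lower. Its transcript Adrb3-201 took 26.2%, 13.4%, 32.7% and 19.8% of Adrb3 counts in AM6545 B, D, E and F, and 60.0%, 64.7% and 46.3% in Vehicle B, D and E. All AM6545 shares were below all Vehicle shares, with means of 23.0% ± 8.32 (SD, n = 4) and 57.0% ± 9.59 (SD, n = 3). Adrb3-203 had the reverse, 61.8% ± 12.8 in AM6545 and 37.7% ± 4.86 in Vehicle, also without overlap.

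In normalised counts Adrb3-201 stood at 4.77, 3.11, 8.69 and 5.48 in AM6545 and 23.7, 15.3 and 18.5 in Vehicle, from 78.3 counts in all. Its log2 fold change was -1.79 (SE 0.51; edgeR adjusted p 0.559). Adrb3-203 had a log2 fold change of 0.19 (SE 0.45), and its sign turned with the replicate block and without AM6545 F or Vehicle D.

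Both Adrb3 transcripts contain the same 1200 coding bases, and 203 is contained in 201. Adrb3-201 has 931 bases that 203 lacks, among them the exon at chr8:27229109-27229588. Of these 931 bases, 545 (58.5%) are also covered on the opposite strand by exons of Gm45470, an antisense gene that was not analysed here. Whether the quantification used strand is not given in the sources used here, so reads of Gm45470 cannot be told apart from those of Adrb3-201 there.

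Adra1b and Adra2a were each divided between 2 transcripts. Adra1b-202 held 93.0% ± 13.9 of Adra1b counts in AM6545 (SD, n = 4) and 70.9% ± 5.54 in Vehicle (SD, n = 3). The remainder was Adra1b-203, at 0, 0, 0 and 27.6 normalised counts in AM6545 B, D, E and F and 37.9, 36.5 and 20.2 in Vehicle B, D and E. AM6545 F lay inside the Vehicle range and the other 3 AM6545 libraries were at 0, with a log2 fold change of -2.13 (SE 1.62; edgeR adjusted p 0.768). Adra1b-202 is annotated as a processed transcript, but its 2 exons are the same as those of the coding transcript Adra1b-204, which was not analysed here, so its counts may belong to a coding mRNA.

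For Adra2a, Adra2a-202 held 85.8% ± 2.79 of counts in AM6545 (SD, n = 4) and 89.0% ± 6.08 in Vehicle (SD, n = 3), and Adra2a-201 the rest. Both contain the same 1395 coding bases. Adra1a was the most divided member: Adra1a-202 held 55.1% ± 16.4 and 53.6% ± 12.9, and Adra1a-203 held 28.5% ± 11.8 and 31.4% ± 7.23. All of these shares overlapped between treatments.

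**Figure D4:**
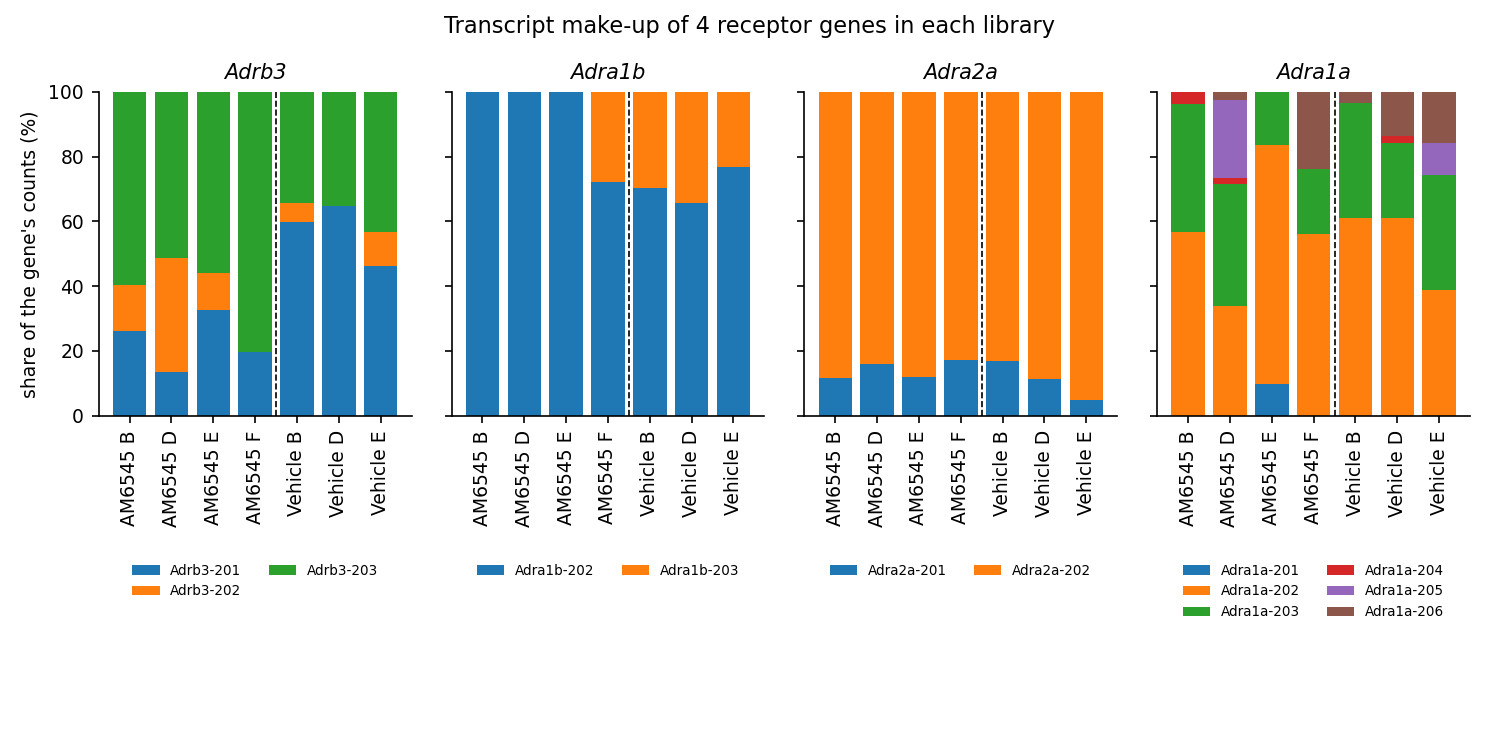
Share of each gene's counts (%) taken by its annotated transcripts in every library, AM6545 left and Vehicle right of the dashed line, for Adrb3, Adra1b, Adra2a and Adra1a. Adrb3-201 takes 13.4% to 32.7% in AM6545 and 46.3% to 64.7% in Vehicle, and Adra1b-203 is at 0 in 3 AM6545 libraries.

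Beyond the receptors, 88 genes of noradrenaline handling and receptor signalling were followed in 6 lists, and 85 of them could be tested. None had an adjusted p under 0.05 (edgeR); at an unadjusted p under 0.05 there were 9 higher and 8 lower, against 5.86% and 8.7% of all genes tested. The median log2 fold change was -0.01. With the correction for GC content and length, 1 was higher and 5 were lower at the unadjusted mark, against 2.25% and 4.5% of all genes with that correction. DESeq2 called 3 of them (Adcy1, Gnai3 and Rgs4) and 1.69% of all genes, and limma-voom 1 (Adcy1) and 0.805% of all genes. Vehicle E decided this count: without it, 6.38% of all genes passed the adjusted threshold, and so did 11 of the list genes, namely Maoa, Adcy1, Adcy5, Adcy6, Adcy9, Rapgef4, Trpc6, Gnai3, Rgs4, Ppp1r9b and Dlg4.

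Of 11 genes for the synthesis, storage, uptake and breakdown of noradrenaline, 8 were tested, with a median log2 fold change of 0.20. At the unadjusted mark 2 were higher and 0 lower, against 5.86% and 8.7% of all genes tested. The 2 were Maoa, encoding a monoamine-degrading oxidase, and Slc18a2, encoding the vesicular monoamine transporter. Maoa was at 28.6 ± 1.10 CPM with AM6545 (SD, n = 4) against 22.6 ± 4.17 CPM with Vehicle (SD, n = 3), a log2 fold change of 0.34 (SE 0.13; edgeR adjusted p 0.264). For Slc18a2 the values were 6.77 ± 0.759 and 5.12 ± 1.10 CPM, a log2 fold change of 0.39 (SE 0.17; edgeR adjusted p 0.320). With the GC correction they stood at 0.13 and 0.18, and 0 of the list were higher and 0 lower at the unadjusted mark (2.25% and 4.5% of all genes). Without Vehicle B the list had 0 higher and 1 lower at the unadjusted mark (409 and 545 of all 14763 genes). Its median was then 0.12 and Maoa stood at 0.21. Without Vehicle E Slc18a2 was at 0.25. Th, encoding the rate-limiting enzyme of catecholamine synthesis, had a log2 fold change of -0.48 (SE 0.27; edgeR adjusted p 0.430). Exons of Slc18a2 overlap a gene on the opposite strand, whose reads cannot be told apart without strand.

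The Gs and cyclic AMP list, the arm of the beta receptors, held genes in both directions, with a median of 0.04. At the unadjusted mark 4 of 25 were higher and 4 lower, against 5.86% and 8.7% of all genes tested. Without Vehicle B these were 2 and 2 (409 and 545 of all 14763 genes), and without Vehicle E 5 and 5 (1902 and 1908 of 14807). With the GC correction they were 1 and 1 (2.25% and 4.5% of all genes). The higher ones included Prkar2b and Prkacb, subunits of protein kinase A, with log2 fold changes of 0.37 (SE 0.11) and 0.34 (SE 0.11; edgeR adjusted p 0.231 and 0.245). The lower ones were the adenylyl cyclase genes Adcy1, Adcy5, Adcy6 and Adcy9, whose products make cyclic AMP. Adcy1, a calcium-stimulated form, was at 262 ± 24.1 CPM with AM6545 (SD, n = 4) against 354 ± 41.2 CPM with Vehicle (SD, n = 3). Its groups were apart, and its log2 fold change was -0.43 (SE 0.11, edgeR adjusted p 0.199). Adcy5 was at -0.39 (SE 0.12; edgeR adjusted p 0.231). With the GC correction Adcy1 stood at -0.19, Adcy5 at -0.15, Prkar2b at 0.18 and Prkacb at 0.18.

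In the Gi/o list, the arm of the alpha-2 receptors, 3 of 13 genes were higher and 1 lower at the unadjusted mark. Of all genes tested 5.86% were higher and 8.7% lower at that mark. Gnai3, encoding an inhibitory G protein subunit, was at 43.9 ± 2.11 CPM with AM6545 (SD, n = 4) against 33.3 ± 3.86 CPM with Vehicle (SD, n = 3), with a log2 fold change of 0.40 (SE 0.11; edgeR adjusted p 0.199). Rgs4, encoding a protein that shortens Gi/o and Gq signals, was at 208 ± 6.72 and 168 ± 12.6 CPM, a log2 fold change of 0.31 (SE 0.09; edgeR adjusted p 0.218). The lower gene was Hcn2, encoding a cation channel modulated by cyclic AMP, at -0.25 (SE 0.10, edgeR adjusted p 0.284). It was not past the mark without AM6545 B, AM6545 F or Vehicle B. Gnai2 was at -0.09 (SE 0.10). With the GC correction 0 of the 13 were higher and 1 lower at the unadjusted mark (2.25% and 4.5% of all genes), and the lower one was not Hcn2. The corrected log2 fold changes were 0.18 for Gnai3, 0.12 for Rgs4 and -0.05 for Hcn2.

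None of the 14 genes of the Gq and phospholipase C list, the arm of the alpha-1 receptors, passed the unadjusted mark; the nearest were Itpr1, encoding the calcium release channel, at -0.23 (SE 0.11; edgeR adjusted p 0.354) and Gna11, encoding a Gq-class subunit, at -0.20 (SE 0.10; edgeR adjusted p 0.388). On the higher side Plcb2 was at 0.29 (SE 0.23) and Trpc6 at 0.19 (SE 0.17). The count depended on the setting. With limma-voom 1 was higher and 2 lower at that mark (1741 and 1786 of all 14654 genes). Without Vehicle E 2 were higher and 2 lower (1902 and 1908 of 14807), and Trpc6 stood at 0.46 (edgeR adjusted p 0.0495). With the GC correction Itpr1 was at -0.09, Gna11 at -0.20, Plcb2 at 0.26 and Trpc6 at 0.04. The list's median went from 0.07 to -0.01 with that correction. Of 13 genes for desensitisation and scaffolding, 0 were higher and 3 lower at the unadjusted mark, against 5.86% and 8.7% of all genes tested. The 3 were Arrb1, encoding a beta-arrestin, Dlg4, encoding the postsynaptic scaffold PSD-95, and Ppp1r9b, encoding spinophilin, which binds alpha-adrenergic receptors. Without AM6545 B or Vehicle B none of the list was lower at that mark (1050 of 14593 and 545 of 14763 genes were). With the GC correction 0 were higher and 1 lower (2.25% and 4.5% of all genes). Ppp1r9b had 121 ± 19.9 CPM with AM6545 (SD, n = 4) against 222 ± 112 CPM with Vehicle (SD, n = 3), a log2 fold change of -0.87 (SE 0.30; edgeR adjusted p 0.266) that was -0.41 without Vehicle B. Dlg4 was at -0.52 (SE 0.21; edgeR adjusted p 0.2998), and -0.28 without Vehicle B. Grk6 and Magi2 were at 0.12 (SE 0.09) and 0.09 (SE 0.10).

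Of 12 genes that respond to cyclic AMP and CREB, none passed the unadjusted mark with edgeR, and the median was -0.10. The count and the median depended on the setting. At the unadjusted mark 6 were lower with limma-voom (1786 of all 14654 genes were), with a median of -0.32. Without Vehicle E 4 were lower (1908 of 14807 genes), and with the GC correction 2 (4.5% of all genes). None of the 12 passed the adjusted threshold in these settings. The median was 0.04 without AM6545 D and 0.06 without Vehicle D. Per1 and Nr4a2, both transcriptional regulators, were at -0.27 (SE 0.15) and -0.19 (SE 0.11), and at -0.18 and -0.34 with the GC correction. Dusp1, encoding a phosphatase of MAP kinases, was at 0.10 (SE 0.14), and Crem, encoding a cyclic AMP-responsive transcription factor, at 0.08 (SE 0.10). Dusp1 turned to -0.11 with limma-voom and to -0.01 without Vehicle E.

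**Figure D5:**
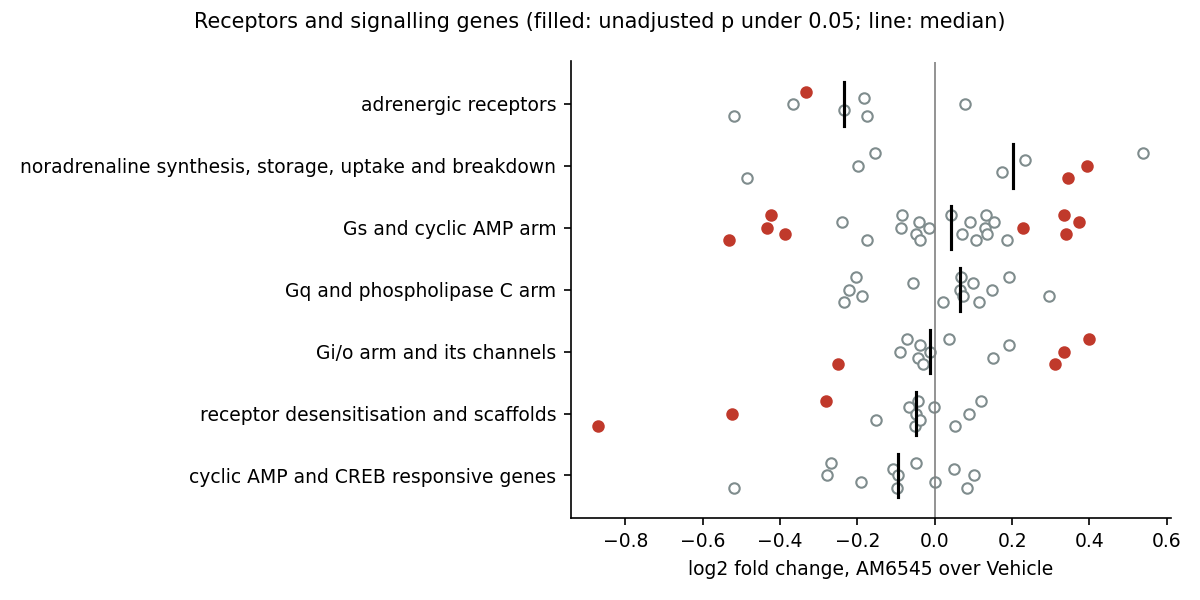
Log2 fold change, AM6545 over Vehicle, of the 7 tested receptors and of the tested genes of the 6 signalling lists; each point is a gene, filled where the unadjusted edgeR p is under 0.05, and black lines are medians. Vertical offsets within a list only separate the points. Filled points lie on both sides of 0, and no gene passes the adjusted threshold.

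Cnr1, the gene of the receptor that AM6545 blocks, gave 91.5, 108, 114 and 102 CPM in AM6545 B, D, E and F and 117, 92.2 and 86.5 CPM in Vehicle B, D and E. The groups overlapped, and the log2 fold change was 0.07 (SE 0.12; edgeR adjusted p 0.797).

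Markers of noradrenergic neurons were uneven in the fraction. Phox2a, a transcription factor gene of these neurons, was at 0 in all 7 libraries and Slc6a2, the noradrenaline transporter gene, had 2 counts in all. Others were present: Slc18a2 stood at 3.07 TPM, Th at 1.27 TPM and Dbh, encoding the enzyme that makes noradrenaline from dopamine, at 0.612 TPM. The summed level of the list was 7.56 to 9.50 CPM in AM6545 and 6.55 to 8.18 CPM in Vehicle. Marker lists of other cells were present in every library, and the summed levels of all 11 marker lists overlapped between the treatments. Of all genes tested 48.6% had log2 fold changes below 0. Among excitatory neuron markers 5 of 6 did (3125 to 3501 CPM in AM6545, 3460 to 4126 CPM in Vehicle). Among synaptic markers 4 of 6 did (4906 to 5444 CPM and 4867 to 5088 CPM). Of 9 microglial markers 7 were below 0, 6 of them at the unadjusted mark (8.7% of all genes were) and 5 with groups apart (7.19% of all genes), with a median log2 fold change of -0.45 (848 to 926 CPM and 904 to 1167 CPM). Among them Tyrobp, an adaptor of microglial receptors, was at -0.65 (SE 0.14) and C1qc, a complement gene, at -0.46 (SE 0.12; edgeR adjusted p 0.199 for both). Astrocyte markers were divided, 5 of 10 below 0 (4275 to 5310 CPM and 4445 to 5729 CPM). Also below 0 were 4 of 6 inhibitory neuron, 4 of 6 oligodendrocyte, 2 of 3 oligodendrocyte precursor and 5 of 5 choroid plexus markers. Most markers lay above 0 in the endothelial list (1 of 6 below), the pericyte and smooth muscle list (2 of 7) and the noradrenergic list (1 of 3 tested). The part of these cell types in the receptor values was not tested.

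The genes whose profile over the 7 libraries was most like that of Adra2c were Sap30l, Pou2f1 and Fancf. Likeness was the root mean square difference of log2 CPM, centred per gene, over 12159 genes with a mean of at least 50 counts, and was 0.038, 0.046 and 0.046 for these against a median of 0.26. For Adra1d the nearest were Thap7 (0.037), Tor1b (0.039) and Timmdc1 (0.043), against a median of 0.21. With 7 libraries and so many candidates, these values describe the profiles only.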

How the data were processed

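Per the labels' protocols, RNA of the hippocampal fraction was extracted with RNeasy reagents and libraries were made with a SMARTer kit for low input. The authors deposited estimated counts per gene and per transcript, 1 column per library, not scaled to a common total; 83.5% of gene values above 0 were not whole. Salmon 1.5.2 and mm10 are named in the submitters' processing notes; which annotation was used, and whether strand was, is not given in the sources used here. Names, positions, lengths, GC content and sequences came from GENCODE M21, which held 22148 of 22248 gene and 101527 of 102392 transcript identifiers, ignoring versions.

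Counts were rounded, and the treatments were compared in R 4.3.3 with edgeR 4.0.16 (limma 3.58.1), using its quasi-likelihood test with robust estimation, TMM, filterByExpr and no covariates. P-values were adjusted by Benjamini-Hochberg over all 14654 genes or 33962 transcripts, threshold 0.05. SE is the absolute log2 fold change over the square root of F, and intervals use the fit's degrees of freedom. The median biological coefficient of variation was 12.4%. Low-level members rest on few counts, which limits their precision.

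The members, gene lists, tests and alternatives were chosen with earlier results of these data known. All members, Cnr1, up to 2 genes per direction and list with the smallest unadjusted p, transcripts with at least 10% of a member's counts in a library, and the 3 nearest profiles of the 2 highest members were named; other list genes named with a count were chosen after their values were seen. The list totals include genes whose own values are not reported here. Alternatives were other scalings, DESeq2 1.42.0, limma-voom, other filters, a replicate block, GC and length correction (lowess, span 0.3), transcripts summed per gene and leaving out each library. On simulated data with 200 of 14654 genes changed, edgeR recovered 80% of log2 changes of 1 and 99% of changes of 2, with 5.29% of calls false; for 33962 transcripts it recovered 10% and 42%, with 11.9% false. Smaller changes were not simulated.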

Additional observations from a re-analysis of the deposited data

Results flagged for a closer look

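In 6 of 50 gene or transcript profiles examined, 1 AM6545 library stood apart from the other 3 by Dixon's criterion; chance gives about 2.5. Adra2a had 16.1 CPM in AM6545 E, against 10.8 to 11.6 in the other AM6545 libraries and 9.58 to 13.2 in Vehicle. Gnai2 had 305 CPM in AM6545 D, against 266 to 271 in the others, and within the Vehicle range of 274 to 327. Grk6 had 70.3 CPM in AM6545 F, against 67.9 to 68.3 in the others and 61.2 to 65.5 in Vehicle. Adra1a-202 had 44.9 normalised counts in AM6545 E, against 21.5 to 23.6 in the others and 27.4 to 34.0 in Vehicle. Adra1a-205 had 16.4 in AM6545 D and 0 in the others, with 0 to 6.90 in Vehicle. Adra1b-203 had 27.6 in AM6545 F and 0 in the others, with 20.2 to 37.9 in Vehicle.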

How the results depend on the processing

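The count of receptors past the adjusted threshold was 0 in all 20 alternatives, and Adra2c, Adrb1, Adra1a, Adra1b and Adrb3 kept a negative fold change in each alternative that gave one. The count of all genes past the threshold, 1 with edgeR, was 247 with DESeq2 (4546 genes without an adjusted p), 118 with limma-voom, 0 with the GC and length correction (988 at an unadjusted p under 0.05), 2 without robust estimation, 2 with a mean of at least 50 counts, 4 at an adjusted p under 0.1, and 0 to 944 when 1 library was left out. It was 944 without Vehicle E, 3 without Vehicle D, 2 without AM6545 B and 0 without Vehicle B (954 unadjusted) or AM6545 E (1677 unadjusted). Scaling by total counts changed the unadjusted split from 859 higher and 1275 lower to 1104 and 943. Pathway genes past the threshold numbered 3 with DESeq2, 1 with limma-voom and 0 to 11 when 1 library was left out.

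Signs that turned were those of Adra1d with the GC correction (0.12) and with it and the block (0.15), Adra2a with limma-voom (-0.13), Cnr1 with the GC correction (-0.0053), Gnai2 with the correction and the block (0.0087) and Dusp1 with limma-voom (-0.11). Leaving out 1 library gave ranges that crossed 0 for Adra2a (-0.072 to 0.18), Cnr1 (-0.012 to 0.22), Dusp1 (-0.013 to 0.20), Adrb3-203 (-0.072 to 0.44), Adra1b-202 (-0.0052 to 0.31), Adra2a-202 (-0.12 to 0.16), Adra2a-201 (-0.056 to 0.78) and Adra1a-202 (-0.43 to 0.00039). The cause was not tested. The GC slope difference was -0.175 to -0.132 with 1 library left out, where the design cannot reach p 0.05.

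In the order of levels, the length of the longest transcript put Adra2a at place 4 and Adrb1 at 3, and CPM put Adra2a at 2 and Adra1d at 3. Adra1a and Adrb3 took places 6 to 7 when 1 library was left out, changing places without AM6545 D or Vehicle D.

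No label says that the letters pair the mice, so no pairing was used in the main comparison. The deviations of same-lettered libraries had r of -0.26, -0.13 and -0.18, and those of differently lettered ones -0.17 to 0.22. With 3 shared letters these values cannot decide whether the letters pair the mice. With the replicate letter as a block, 1 gene passed the threshold (1199 unadjusted), Adra2c was at -0.35 and Adrb3-203 at -0.0306. Transcripts under a mean of 50 counts have no value under that filter, nor do the genes Adrb3, Plcb2 and Th.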
